A study of Drosophila melanogaster with 3 samples.

Results

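Sites bound by the GFP-tagged protein CG16815 were examined where they lie just in front of a promoter that is not shared with a neighbouring gene on the other strand. This can be the first promoter of a gene or an alternative one within it. A member was a row of the authors' final site list (dm6 build) whose summit, the point of highest signal, lay 1 to 500 bp upstream of the nearest transcription start site (TSS) of a protein-coding gene, read along that gene's strand. Summits between a pair of divergent coding TSSs at most 1000 bp apart were left out of the class. The rule found 872 of the 3922 sites of the list (22.2%, 95% exact binomial interval 20.9 to 23.6, which covers counting error only), at 783 different genes. Within the list it used position alone, but the list itself was cut by signal, so every member had a pooled signal of at least 124.8.

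The study was chromatin immunoprecipitation followed by sequencing (ChIP-seq) of whole Drosophila melanogaster embryos aged 0 to 10 h, males and females pooled. The flies were a transgenic line, strain CG16815-GFP, with GFP fused to the C terminus of CG16815 and stably expressed, and an antibody against GFP pulled down the tagged protein, so a site is bound DNA in any embryonic cell type. There was 1 group of 3 biological replicates, all of this genotype, with chromatin sonicated to a size range of 200 to 800, and no control library was analysed here. Each replicate had its own list of called regions (30000, 21989 and 27358 in replicates 1, 2 and 3), a pooled list held 18764 regions, and the final list held the 3922 of these with the highest signal, called passing sites here. N is 3922, and the N best summits of a replicate are the 3922 with the highest signal in its own list.

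A promoter is the stretch of DNA around a TSS on which RNA polymerase II and its general factors assemble. In Drosophila, the DNA just upstream of an active TSS is often poor in nucleosomes and rich in A and T, and carries the sites of sequence-specific factors and insulator proteins. Many housekeeping genes of this genome lie head to head and share that stretch, whereas a single promoter serves 1 gene and direction. CG16815 is known by its annotation number, and no binding motif for it was used here.

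The DNA at the summits of strong members is shown first, because base composition differed clearly between the summits and the DNA beside them. These are 7 of the 20 strongest members found in every replicate, chosen in order of signal among those with no annotated exon in the window, with further sequences not shown here, each as the summit with 50 bp to either side (RefSeq dm6 genome sequence, 5′ to 3′ on the strand of the gene downstream). Capitals mark runs of at least 8 bases made of A and T only.
CG14100 (chr3L:19590570-19590670, minus strand): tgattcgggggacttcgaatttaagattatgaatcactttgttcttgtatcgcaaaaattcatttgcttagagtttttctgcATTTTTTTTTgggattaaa
ph-p (chrX:2137278-2137378, minus strand): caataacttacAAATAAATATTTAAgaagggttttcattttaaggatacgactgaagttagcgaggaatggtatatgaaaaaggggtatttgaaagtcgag
CG13921 (chr3L:1746734-1746834, plus strand): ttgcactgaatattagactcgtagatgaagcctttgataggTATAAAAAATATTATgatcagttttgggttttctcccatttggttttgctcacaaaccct
Atf3 (chrX:1275461-1275561, minus strand): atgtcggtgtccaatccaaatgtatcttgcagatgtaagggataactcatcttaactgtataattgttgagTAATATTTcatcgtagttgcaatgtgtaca
larp (chr3R:28326553-28326653, minus strand): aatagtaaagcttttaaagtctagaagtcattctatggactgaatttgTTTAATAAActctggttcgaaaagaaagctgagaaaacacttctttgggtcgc
Rtnl1 (chr2L:4997599-4997699, minus strand): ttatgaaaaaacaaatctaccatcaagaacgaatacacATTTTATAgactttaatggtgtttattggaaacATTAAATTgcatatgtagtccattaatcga
CG31145 (chr3R:23669798-23669898, minus strand): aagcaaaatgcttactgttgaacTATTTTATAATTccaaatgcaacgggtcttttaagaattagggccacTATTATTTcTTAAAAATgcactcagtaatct
The GC content of these 7 windows lay between 26.7% and 34.7%, and their longest A/T run measured 8 to 15 bases. The word TATAAA, the TATA box that positions polymerase when it lies close to a TSS, occurred on either strand in 3 of the 7 windows, those of CG13921, Rtnl1 and CG31145. CGATA, the core recognised by the insulator protein BEAF-32, occurred in that of CG14100 alone.

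The strongest member was also the strongest of all passing sites. It lay 96 bp upstream of CG14100, between that gene and the 3′ end of a neighbour 153 bp from the summit, with a pooled signal of 3571.3 (the authors' value, in the unit of their peak caller). It ranked 2, 1 and 4 by signal in the lists of replicates 1, 2 and 3. Next came px, which encodes the nuclear protein Plexus that acts in wing vein patterning, with a signal of 2788.9 at 195 bp and ranks of 7, 7 and 1. The site of ph-p, 473 bp upstream of a TSS, followed with a signal of 2757.7 and ranks of 4, 6 and 3. This gene encodes Polyhomeotic, a subunit of the Polycomb repressive complex PRC1. All 3 thus stood among the best 7 regions of every replicate.

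The other strong sites lay at genes of several kinds. Sox14, an HMG-box factor, had a signal of 1689.5 at 253 bp and ranks of 22, 29 and 28. Atf3, a bZIP factor, had a signal of 1599.4 at 227 bp and ranks of 25, 22 and 170. E(spl)m3-HLH, a repressor of the Notch pathway, had a signal of 1177.8 at 428 bp and ranks of 85, 73 and 70. Of these factors Sox14 and E(spl)m3-HLH held close ranks in the 3 lists, and Atf3 ranked lower in replicate 3. The zinc-finger gene chn had a signal of 1251.9, 177 bp upstream of a TSS within the gene. larp, which encodes a La-related RNA-binding protein, had a signal of 1580.8 at 339 bp and ranks of 37, 31 and 48, and eIF6, a factor of large ribosomal subunit maturation, had 1500.3 at 107 bp and ranks of 23, 37 and 138.

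Among genes of the membrane system and the cytoskeleton, Rtnl1, a reticulon that shapes the endoplasmic reticulum, had a signal of 1522.0 at 268 bp. Fkbp14, a prolyl isomerase of the endoplasmic reticulum, had 1566.9 at 122 bp, the transporter gene MFS10 had 1357.6 at 148 bp, and Fhos, a formin, had 1370.8 at 284 bp. gish, which encodes a casein kinase 1 gamma, had 1399.4 at 145 bp. The remaining strong sites lay at CG1888 (2222.7), CG13921 (1717.2), Tina-1 (1668.1), CG31145 (1434.5), CG18549 (1387.5) and brwl (1245.8), each value a pooled signal. Of the 20 strongest sites, 10 lay inside their own gene, upstream of an alternative TSS, and 9 lay between coding genes. Those of px, ph-p, larp, Fkbp14, Rtnl1, gish, Fhos and chn lay in introns of the gene itself, and that of eIF6 lay inside another coding gene.

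Replicates 1 and 2 ordered these 20 sites more alike than replicate 3 did. All 20 were among the 100 best regions of replicate 1 and of replicate 2, where their ranks spanned 2 to 85 (median 38.5) and 1 to 78 (median 35.5). In replicate 3, 14 of the 20 were among the 100 best, and ranks spanned 1 to 282 (median 59). CG31145 was the lowest there, at rank 282 against 39 and 34 in replicates 1 and 2, while gish stood at rank 16 in replicate 3 against 71 and 55.

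**Figure D1:**
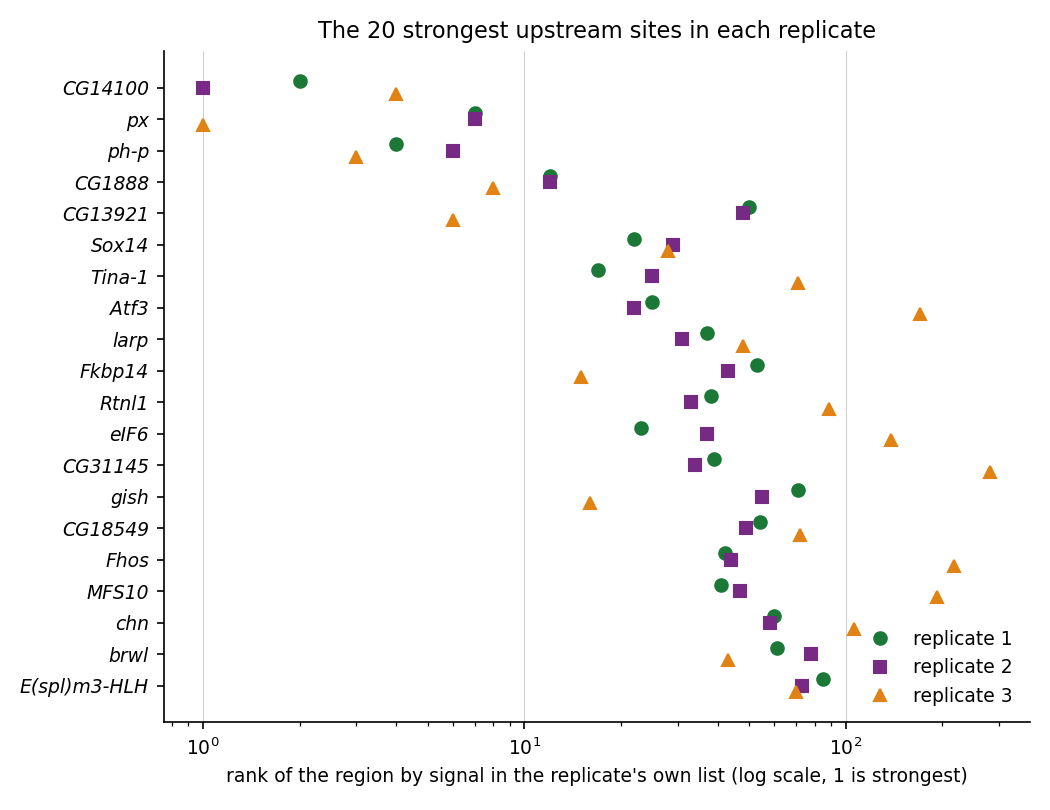
Rank by signal of the 20 strongest upstream sites in each replicate's own list (log axis, rank 1 is the strongest region), from the highest pooled signal at the top. Green circles, purple squares and orange triangles stand for replicates 1, 2 and 3; the orange triangles spread to rank 282 while the other symbols stay at or above rank 85.

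Upstream summits lay most often some way in front of the TSS, and seldom right at it. The median distance was 215 bp (lower quartile 138, upper quartile 319), and 478 members (54.8%) lay 51 to 250 bp upstream. The step of 151 to 200 bp held most, 136 members, whereas 38 lay within 50 bp of the TSS and 46 at 451 to 500 bp. The N best upstream summits called in each replicate had a median distance of 224.5, 214 and 210 bp, a mean of 216 ± 7.49 bp (SD, n = 3). A replicate's own summit lay a median of 20, 6 and 20 bp from that of the pooled list in replicates 1, 2 and 3, well below the width of these steps.

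The share of regions that passed followed the same course. Of the 18764 pooled regions, 20.9% passed, and of the 2169 of them upstream of single promoters 872 did (40.2%, interval 38.1 to 42.3). This share was 50.2% (44.1 to 56.3) at 151 to 200 bp, 26.2% (19.3 to 34.2) at 1 to 50 bp and 32.2% (24.6 to 40.5) at 451 to 500 bp. The 38 members within 50 bp of the TSS had a median signal of 171.5, below every other step, while over all members signal and distance were almost unrelated (Spearman's rho 0.04 across 872 sites, which are not independent replicates).

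**Figure D2:**
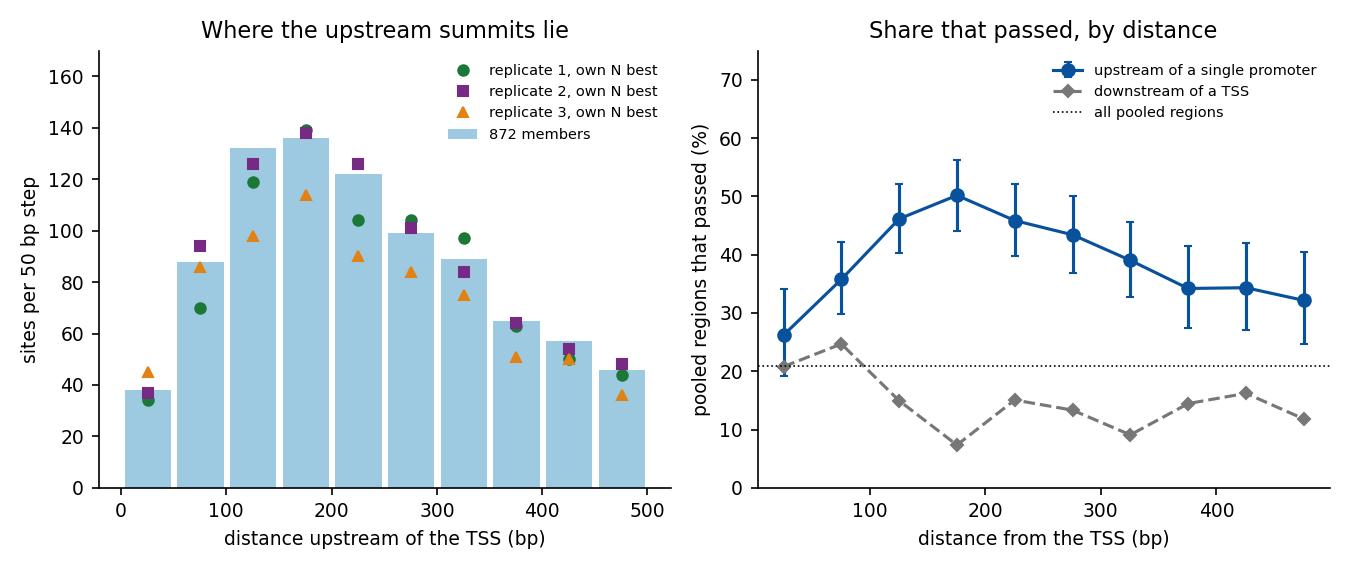
Left, members in steps of 50 bp upstream of the TSS (bars, 872 in all) and the N best upstream summits of each replicate (symbols). Right, percentage of pooled regions that passed by distance, upstream of single promoters (blue, bars are 95% exact binomial intervals) and downstream of a TSS (grey), with the 20.9% of all pooled regions dotted; the blue line is highest at 151 to 200 bp, at 50.2%.

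At the edges of the window the class is a matter of few base pairs. The members nearest a TSS were CG13255 (signal 136.2) and Ccz1 (129.7), at 1 bp, and RpL30 (249.6), at 4 bp. Just past the TSS and so outside lay Tmem18 (139.4) at 1 bp and scny (316.0) at 2 bp downstream. At the far edge jar (609.2) and CG17896 (816.6) lay at 500 bp and a site of stv (149.1) at 499 bp, while Tlk (166.7) and nerfin-1 (149.6) at 502 bp and wkd (171.5) at 503 bp were outside.

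Compared with the sites on the other side of the TSS, upstream sites were many times denser and passed more often, but the ranks of the sites that passed differed by less than the spread between replicates. The DNA that the rule covers came to 5.91 Mb, 4.42% of the assembled arms, and held 147 passing sites per Mb, against 15.4 per Mb in the 500 bp downstream of TSSs. The ratio was 9.58 in the final list. Taken from each replicate's own N best, it was 8.78 in replicate 1, 8.40 in replicate 2 and 6.29 in replicate 3, on average 7.82 ± 1.34 (SD, n = 3). Of the regions a replicate called upstream, 38.4%, 35.1% and 31.7% were among its N best in replicates 1, 2 and 3, against 9.87%, 12.7% and 8.96% of those it called downstream. The groups did not overlap, and the difference was 24.5 ± 3.44 percentage points (exact sign-flip permutation test over 3 replicates, two-sided, p = 0.25, the smallest value 3 replicates allow). It was 15.9 percentage points with 1 TSS per gene. With N set to 1961, which lowers the share in every class, it was 15.4. Among all regions, 13.1%, 17.8% and 14.3% were among the N best.

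Passing upstream sites had median ranks of 1745, 1648.5 and 2039.5 among the 3922 passing sites in replicates 1, 2 and 3, against 1726, 1739.5 and 2104 for the 128 passing downstream sites. A lower rank number is a stronger site, and the difference of -45.5 ± 57.4 ranks was within the spread between replicates (exact sign-flip permutation test, two-sided, p = 0.5). With 1 TSS per gene, its 5′-most, the sign turned to 161 ± 58.5 ranks. The share among the N best was 81.5%, 92.9% and 72.0% for upstream sites and 82.8%, 92.2% and 64.8% for downstream sites. Their difference of 2.20 ± 4.42 percentage points had a p of 0.75 by the exact permutation test, and its sign turned with 1 TSS per gene and without replicate 3.

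Sites between divergent promoters were fewer than upstream sites but denser, and a larger share of the regions called there was among the N best. They numbered 714, at 647 per Mb, and 63.3%, 54.1% and 52.0% of the regions called there were among the N best of replicates 1, 2 and 3. The upstream sites' median rank was weaker by 84.5, 195 and 241.5 places in replicates 1, 2 and 3, a mean of 174 ± 80.6 (exact sign-flip permutation test, two-sided, p = 0.25). Among the 1961 passing sites with the highest signal, the sign of this difference turned, to -56.3 ± 9.07 ranks. The share among the N best differed by -2.68 ± 2.78 percentage points (exact permutation test, p = 0.5).

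**Figure D3:**
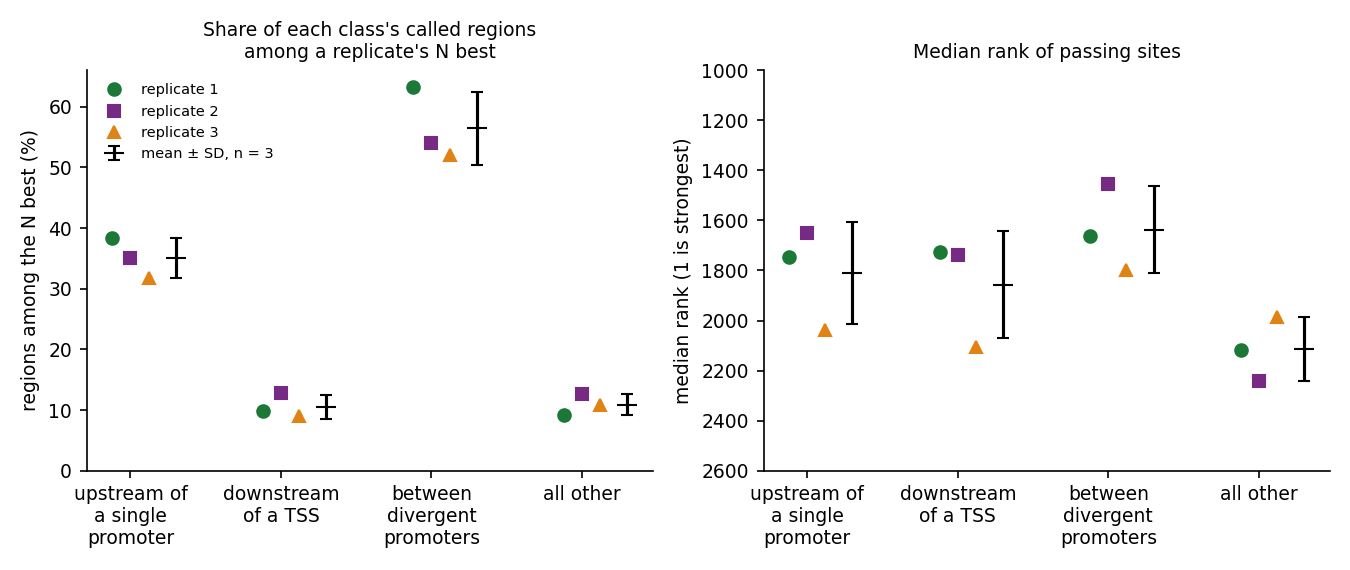
Left, percentage of the regions called in each class that were among the replicate's 3922 best; right, median rank of each class's passing sites among all passing sites (axis inverted, rank 1 is strongest). Symbols are replicates 1, 2 and 3, and black bars the mean ± SD (n = 3); on the left the upstream class (31.7% to 38.4%) lies between downstream and divergent sites, and on the right the spread between replicates covers most class differences.

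The members were found again in most replicate lists, and replicates 1 and 2 ordered them most alike. A summit within 150 bp was present in all 3 lists for 742 members (85.1%), near the 87.1% of all passing sites. Of the members, 505 (57.9%) were among the N best of all 3. Replicate 1 alone lacked 58 members, replicate 3 alone lacked 59 and replicate 2 alone lacked 5. Spearman's rho of signal across members was 0.88 for replicates 1 and 2 (801 sites), 0.65 for 1 and 3 (747 sites) and 0.66 for 2 and 3 (800 sites). The other promoter classes were similar, with 0.87, 0.70 and 0.74 for sites between divergent promoters and 0.84, 0.63 and 0.62 for downstream sites. For the 2208 passing sites in none of the 3 promoter classes these values were 0.80, 0.40 and 0.42, a description over sites without a test. The pooled list came from the same 3 replicates, so recovery is not an independent check.

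Recovery fell with signal inside the class. Of the 218 strongest members (signal above 407), 98.6%, 99.5% and 99.5% were among the N best of replicates 1, 2 and 3. Of the 218 weakest (signal 125 to 165) 53.7%, 76.1% and 37.6% were, the fewest in replicate 3 and the most in replicate 2. The pooled signal came from these same replicates, so such a fall is built into the ordering and is no independent result.

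Some members changed place strongly in replicate 3. Among members found in all 3 lists, the sites with the largest loss there lay at sea, a mitochondrial citrate carrier, whose ranks among passing sites were 550, 835 and 3536 in replicates 1, 2 and 3, and at stv, a BAG-family cochaperone, with 992, 357.5 and 3461. Next were prage (731, 610 and 3307), Msp300, a nesprin that anchors nuclei (96, 128 and 2618), and MYPT-75D, a myosin phosphatase targeting subunit (771, 967 and 3310). At 4 of these 5 genes, all but stv, the site lay in an intron of the gene itself.

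The opposite shift was seen at lobo, with ranks of 3628, 3251 and 952, at scrt, a neural zinc-finger factor (3282, 3521 and 950), at blot, a transporter-like protein (3258, 2099 and 281), and at fkh, the forkhead factor of gut and salivary gland (3661, 3035 and 993). The largest gain, at a weak site of spi, an EGF receptor ligand (3388, 3864 and 241.5), came from a replicate 3 summit that was also matched to a stronger spi site nearby. Such sharing touched 16, 9 and 20 members in replicates 1, 2 and 3. Over the 742 members in all 3 lists, the rank in replicate 3 was worse than the mean of the others by a median of 135.75 places. It was worse by over 1000 places at 128 members and better by over 1000 at 63. The same median was 160 places for sites between divergent promoters, 251.25 for downstream sites and -140.5 for sites in none of these classes.

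Most members lay outside coding genes, but many sat inside the gene they front. There were 495 members between coding genes (56.8%), called intergenic here, 67 inside another coding gene (7.68%) and 310 inside their own gene (35.6%), upstream of an alternative TSS, and 326 summits lay in introns. Of the intergenic members, 159 faced the TSS of the neighbour, a median of 3738 bp away, and 336 faced its 3′ end, a median of 613 bp away. The rule thus took in many promoters that lie within a longer transcription unit, and 64 members also had the TSS of a noncoding gene within 500 bp. It left out summits between divergent TSSs at most 1000 bp apart, but none for a near 3′ end. The lower count and longer distance of facing TSSs are therefore partly set by the rule.

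Members at alternative promoters ranked somewhat ahead of those at first promoters, but were not more often among the N best in every replicate. Members at alternative TSSs had median ranks of 1538, 1466 and 2000 among passing sites in replicates 1, 2 and 3, against 1849, 1784 and 2071.5 for the 562 members at the first TSS of a gene. They were ahead in 3 of 3 replicates, by -311, -318 and -71.5 ranks (mean -233.5 ± 140, exact sign-flip permutation test, two-sided, p = 0.25, with 2 comparisons of this kind made). The share among the N best differed by 8.13, 3.02 and -4.63 percentage points in replicates 1, 2 and 3 (mean 2.17 ± 6.42, exact sign-flip permutation test, p = 0.75), with the opposite sign in replicate 3. The pooled signal had a median of 264 at alternative TSSs, against 233 at first TSSs. The other comparison set intergenic members facing a TSS against those facing a 3′ end, with median ranks of 1848, 1686 and 1858 against 1852, 1823.5 and 2130.5. It gave -138 ± 134 ranks (exact sign-flip permutation test, two-sided, p = 0.25), unadjusted like the first; Benjamini-Hochberg adjustment over both leaves the same value.

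A small set of genes had several upstream sites. Of the 783 genes, 706 had 1 member, 69 had 2, 5 had 3, larp and Ptpmeg2 had 4, and Rtnl1 had 5. Sites were counted by summit, so nearby summits at the same TSS count separately. The sites of Rtnl1 lay at alternative promoters at 2L from 4997649 to 5005157 (summits, dm6), with signals of 1522.0, 690.9, 576.0, 357.0 and 264.0. Those of 576.0 and 357.0 lay in overlapping regions upstream of the same TSS. Ptpmeg2, a tyrosine phosphatase on the X, had signals of 628.9, 560.5, 268.4 and 219.5. spi had 898.1, 198.8 and 141.0, of which the first and last shared a called region and a TSS, and dnc, the cAMP phosphodiesterase, 872.6, 639.5 and 141.7. The signals of the sites of Moe, which encodes moesin, differed less, between 165.4 and 192.7, and those of Mhcl lay between 196.7 and 271.1. Genes with several sites thus held both widely and narrowly spread values.

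The sequence at upstream summits was poor in G and C, in a narrow dip. The mean GC content of the summit window, the summit with 50 bp to either side, was 33.0% (SD 8.96 over 872 sites), against 46.4% in windows 450 bp towards the gene and 41.1% in windows 450 bp away from it. At 586 members (67.2%) the summit was lower in GC than both of its flanks, and at 75 it was lower than neither. A run of at least 12 bases of A and T only was present at 39.6% of the summits, against 11.1% and 19.5% in those flanks. For most members the flank towards the gene lay past the TSS. Single promoters with no called region also rose in GC across the TSS, from 37.4% at 200 bp upstream to 46.6% at 200 bp downstream.

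Low GC was shared by most passing sites outside the class, less so by downstream ones, and promoters with no called region had more. The 2208 passing sites in none of the 3 promoter classes averaged 32.1%, those between divergent promoters 30.9% and downstream sites 36.1%. In the replicates' own N best, upstream summits differed from summits in none of these classes by -0.282 ± 1.02 percentage points (SD, n = 3, exact sign-flip permutation test, p = 0.75). The 7156 genes with a single promoter and no called region had 37.6% GC in the window 215 bp upstream, the median distance of the members, and 27.2% of these windows had such a run. The 1297 pooled upstream regions that did not pass averaged 37.8%, also above the members. Own N best upstream summits had a mean GC of 32.6%, 33.1% and 33.6% in replicates 1, 2 and 3, against 36.4%, 36.8% and 39.4% for downstream summits. The groups did not overlap, and the difference was -4.48 ± 1.18 percentage points (exact sign-flip permutation test, two-sided, p = 0.25, the smallest possible). With 1 TSS per gene it was -2.57 ± 1.45. Against sites between divergent promoters, at 30.4%, 31.4% and 31.5%, upstream summits were higher by 2.00 ± 0.282 percentage points (exact permutation test, p = 0.25).

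**Figure D4:**
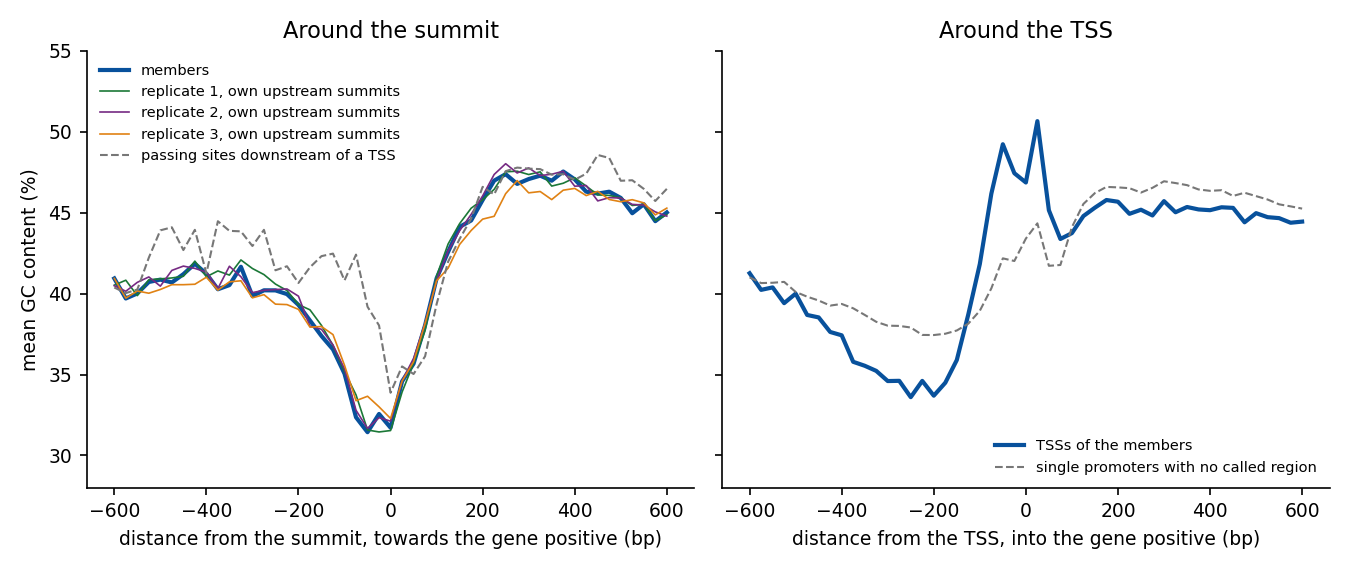
Mean GC content by distance from the summit (left) and from the TSS (right), in steps of 25 bp, with positive distances towards and into the gene. Members (thick blue) and the upstream summits of each replicate (thin lines) dip to about the 33.0% of the summit windows; on the right the members' TSSs have less GC upstream and more at the TSS than single promoters with no called region (dashed grey).

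The stronger members had less GC. Ordered by GC content in 4 sets of 218, from the lowest to the highest, the median signal was 310, 255, 237 and 196. In replicate 1 the median ranks of these sets were 1356.5, 1545, 1779 and 2317.5, in replicate 2 they were 1027, 1460, 1723 and 2202.5, and in replicate 3 they were 1603.5, 1987, 2185 and 2223. All 3 replicates gave the same order, although the last step in replicate 3 was small. The set with the highest GC also lay closer to the TSS, at a median of 169 bp, against 219 bp in the set with the lowest, and the part of distance in this order was not tested.

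Short words of A and T were what the summits held more of than promoters in general. AAATAT occurred at 36.1% of member summits, against 26.5% of all coding promoters and 15.6% of the flanks, and in 36.8%, 34.7% and 36.1% of the upstream summits of replicates 1, 2 and 3. TTAAAA followed at 36.4%, against 27.3% and 13.0%. Of the 50 words of 6 bases with the largest excess over all coding promoters, 30 were made of A and T only, as were 0 of the 50 with the largest deficit and 36 of all 2080, each word counted with its reverse complement. Among the words with the largest deficit were ACACAC, at 2.29% of members against 5.02% of promoters, and GCTGCC, at 2.64% against 5.37%. The words named were picked by the size of their difference in these data. Member summits had 33.0% GC and all coding promoters 36.8%, and the part of base composition in these word shares was not tested.

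Known promoter motifs were found mostly near the frequency of all coding promoters, but several differed from single promoters with no called region. In all, 16 were searched on both strands in the summit window, in both flanks and in the same window of all 13945 coding promoters. The TATA box TATAAA was present at 23.1% of members (interval 20.3 to 26.0), against 10.1% of flank windows and 19.7% of promoters. The 3 replicates' own upstream summits gave 23.1 ± 0.496% (SD, n = 3). Among other passing sites, TATAAA was at 29.7% between divergent promoters and 15.6% downstream of a TSS. It was at 24.7% of the sites in none of the 3 promoter classes. CGATA, the BEAF-32 core, was at 15.0% of members, 10.7% of flanks and 15.0% of promoters. The initiator TCAGT was at 17.2%, 17.3% and 15.4%. In divergent, downstream and remaining passing sites, CGATA was at 19.3%, 16.4% and 10.3%, and TCAGT at 15.0%, 14.8% and 19.1%. In the same window of single promoters with no called region, TATAAA was at 18.1%, CGATA at 12.5% and TCAGT at 15.4%. The first 2 of these shares lay below the members' intervals (12.7 to 17.6 for CGATA).

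The GATA word AGATAA was at 9.40% of members, 5.73% of flanks and 7.31% of promoters, and the homeodomain core TAATTA at 9.17%, 5.56% and 9.10%. The DRE, TATCGATA, which holds the BEAF-32 core within it, was at 1.38%, 0.287% and 1.49%. The core AGGTGGCGC of the insulator protein CTCF was at 0.459% of members, no flank window and 0.151% of promoters. Motif 1, GTCACACT, was at 0.803%, 0.573% and 0.839%. Ohler motif 6 was at 0.229%, 0.0573% and 0.452%, and Ohler motif 7 at 1.95%, 0.803% and 1.86%. Single promoters with no called region held less of each: AGATAA 7.64%, TAATTA 8.79%, the DRE 0.615% and the CTCF core 0.0838%. Motif 1 was there at 0.279%, Ohler motif 6 at 0.126% and Ohler motif 7 at 0.894%. For the DRE, the CTCF core, Motif 1 and Ohler motif 7 these shares lay below the members' intervals. In divergent, downstream and remaining passing sites, AGATAA was at 7.14%, 9.38% and 8.51%, and TAATTA at 14.4%, 8.59% and 10.7%. The DRE was there at 2.66%, 1.56% and 0.181%. The CTCF core, found at only 4 members, was there at 0.140%, 0% and 0.770%. Motif 1 was at 0.420%, 0.781% and 0.136%, and Ohler motif 7 at 4.20%, 1.56% and 0.725%.

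Motifs with repeats or E-boxes were rarer at the summits than beside them. The GAGA repeat GAGAGAG was at 0.688% of members (interval 0.253 to 1.49), 3.56% of flanks and 1.52% of promoters, and the CA repeat CACACACA at 0.459% (0.125 to 1.17), 4.47% and 1.21%. The replicates' own upstream summits held more of both, GAGAGAG at 1.09%, 1.15% and 1.23% and CACACACA at 0.243%, 0.917% and 1.37% in replicates 1, 2 and 3, so the deficit against promoters did not hold in replicate 3 for the CA repeat. The E-box CAGGTG, read by Snail, was at 1.83%, 3.56% and 3.30%, and CAGCTG at 2.75%, 4.30% and 4.27%. CACGTG, the E-box of Myc, was at 1.15%, 1.95% and 1.18%, and CAGGTAG, the site of the early activator Zelda, which shares CAGGT with the Snail word, at 0.229%, 0.516% and 0.617%. Single promoters with no called region held GAGAGAG at 2.05%, CACACACA at 1.52%, CAGGTG at 3.33%, CAGCTG at 3.47%, CACGTG at 1.10% and CAGGTAG at 0.741%. In divergent, downstream and remaining passing sites, GAGAGAG was at 0.140%, 0% and 0.679%, and CACACACA at 0.420%, 0.781% and 0.589%. CAGGTG was there at 2.24%, 2.34% and 1.99%, and CAGCTG at 3.08%, 6.25% and 1.81%. CACGTG was at 0.700%, 0% and 0.543%, and CAGGTAG at 0.280%, 0.781% and 0.453%. All these words contain G or C, of which the summit windows hold less, and the part of base composition in these shares was not tested.

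Among groups of genes, those of the cytoplasmic ribosome had the highest share of genes with an upstream site in the final list, out of 19 lists, although not in replicate 1. Over all 9654 coding genes with a single promoter, 783 had a member (8.11%), and 7.69%, 8.11% and 6.81% had an own N best upstream summit in replicates 1, 2 and 3. Of the 42 ribosomal protein genes with at least 1 single promoter, 16 had a member (38.1%, interval 23.6 to 54.4), and 21.4%, 28.6% and 38.1% had such a summit in replicates 1, 2 and 3. With only the 1961 strongest passing sites the share was 16.7%. In replicate 1 the Polycomb group, at 25%, and the insulator genes, at 23.1%, stood higher. These genes encode the protein subunits of the translating ribosome. Mitochondrial ribosomal protein genes, which serve the ribosome of the organelle, had 0 of 15 (an upper bound of 21.8%).

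The upstream sites of ribosomal protein genes also stood apart in place and order. RpL23A was the strongest, with a signal of 522.9 at 97 bp and ranks of 783, 587 and 260 among passing sites in replicates 1, 2 and 3. RpL22 had 316.7 at 74 bp and ranks of 2693, 1340 and 513, and RpS3A had 299.5 at 112 bp and ranks of 1985, 1739 and 568. All 3 ranked best in replicate 3, and so did every one of the 16 sites, against 249 of the 856 other members (29.1%). The median rank of the 16 was 3216, 3232.5 and 982.5 in replicates 1, 2 and 3, against 1714, 1614 and 2065.5 for the other members. Of the 16, 50%, 68.75% and 93.75% were among the N best of replicates 1, 2 and 3. The final list was cut by signal in a pool of these replicates, which favours weak sites of replicates 1 and 2 that are high in replicate 3. This order is thus partly built into the list, and the other members were not matched for it. Replicate 1 lacked 5 of the 16, and replicate 2 lacked that of RpLP2.

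Their median signal was 209, against 241 over all members. Their median distance was 75.5 bp, and 14 of the 16 (87.5%) lay within 150 bp of the TSS, against 244 of the other members (28.5%). Their median GC was 42.6%, against 31.7% for the other members. The 33 other members within 50 bp of a TSS, with a GC of 44.6%, had median ranks of 3095, 2733 and 2508 in replicates 1, 2 and 3. Of these 33, 13 ranked best in replicate 3 and 11 ranked worst there. Whether distance, GC content or the gene group goes with the order in replicate 3 was not tested.

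**Figure D5:**
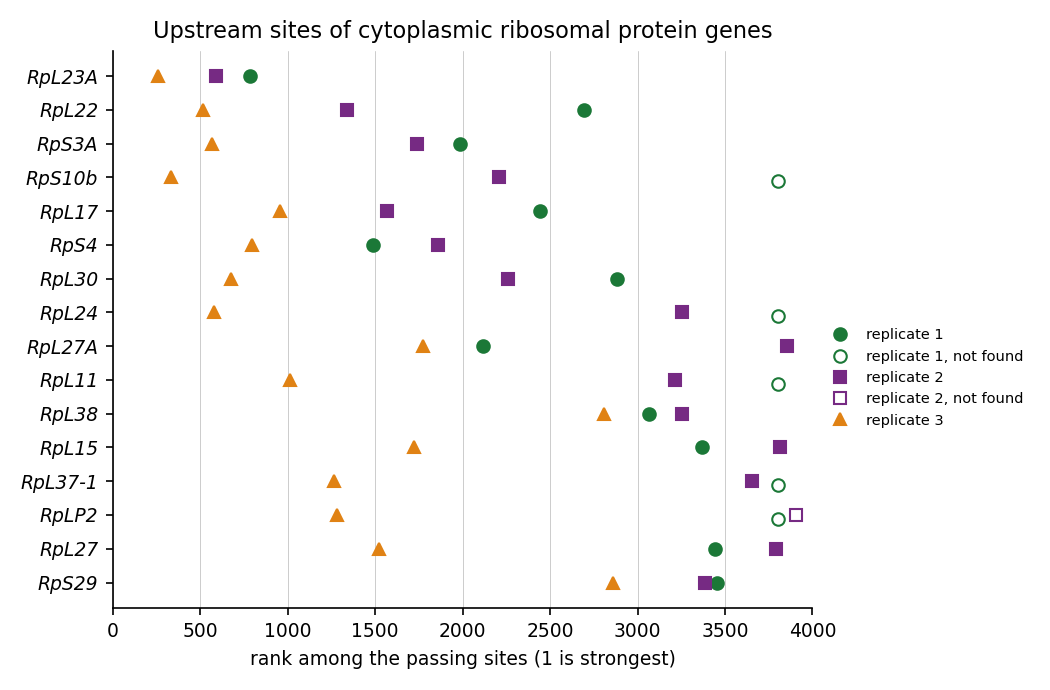
Rank among the 3922 passing sites of the 16 upstream sites at cytoplasmic ribosomal protein genes, in replicates 1 (green circles), 2 (purple squares) and 3 (orange triangles), ordered by pooled signal. Open symbols are sites with no summit within 150 bp in that replicate, placed at the mean of the last ranks; at each gene the orange triangle is the leftmost symbol.

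Genes that act on transcription and chromatin were bound from upstream at several places. Of 22 genes of RNA polymerase II and its general factors 4 had a member (18.2%, interval 5.19 to 40.3): Polr2F, a polymerase subunit, had a signal of 325.3 at 62 bp, TfIIA-S had 272.3 at 61 bp and Taf4, a TFIID subunit, had 242.7 at 120 bp. Of 13 insulator and architectural genes 3 did (23.1%, 5.04 to 53.8), row with a signal of 535.4, BEAF-32 with 303.8 and psq with 218.6. The Polycomb group had 2 of 12, ph-p and pho, whose DNA-binding product had a site of 177.7 at 329 bp that replicate 2 lacked. The trithorax group and the Brahma complex had 0 of 12 (upper bound 26.5%). With so few genes the intervals of these groups all span the 8.11% of all genes.

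Growth and cell division genes gave a similar picture. Of 30 translation factor genes 4 had a member (13.3%, 3.76 to 30.7), with eIF6 first, eEF1gamma at 435.3 and eEF1alpha1 at 340.4. Of 22 cell cycle genes 4 did (18.2%, 5.19 to 40.3): Dp, the partner of E2F, had 545.5, CycE, the S-phase cyclin, had 464.4, and BubR1, of the spindle checkpoint, had 158.7. Replication genes had 0 of 13, nucleoporin genes 0 of 4, splicing genes 0 of 4 and aminoacyl-tRNA synthetase genes 0 of 11. Among genes of the proteasome Rpn11 alone had a member (200.9, 1 of 26), and among those of the respiratory chain and ATP synthase ATPsynC alone (144.7, 1 of 42). Vesicle transport had 3 of 39, with deltaCOP of the COPI coat at 341.0, Rab5 of early endosomes at 314.6 and Rab11 of recycling endosomes at 128.5.

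Developmental regulators had upstream sites at a share near that of all genes, and families of sensory receptors and cuticle proteins had none. Of 27 Hox, gap and pair-rule genes 2 had a member (7.41%, interval 0.910 to 24.3), bcd, the anterior morphogen (285.3 at 205 bp), and the Hox gene Antp (130.6 at 301 bp). Of 28 neural genes 2 did, elav, an RNA-binding protein of neurons, with a strong site of 1075.3 whose ranks were 94, 98 and 105, and mira, an adaptor of dividing neuroblasts, with 186.5. Genes of odorant, gustatory and ionotropic receptors had 0 of 154, which allows at most 2.37%, and cuticle protein genes 0 of 106, at most 3.42%. Both bounds lie under the 8.11% of all genes with at least 1 single promoter.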

How the data were processed

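The authors deposited narrowPeak lists per replicate, for the pool and after an irreproducible discovery rate (IDR) step, on dm6 and dm3; dm6 was used. The aligner, peak caller and IDR threshold were not given in the sources used here. No read counts were analysed, so depth is unknown. The deposited signal of each region has no stated normalisation and was used by rank within a list; the authors' -log10 q-values only described the lists. TSSs came from Ensembl release 115 (BDGP 6.54), sequence from the RefSeq dm6 genome. Summits within 150 bp were matched, and sites not found ranked last. Replicates were compared by exact sign-flip permutation over 3 replicates; p-values measure only the spread between these samples, and adjustment over the comparisons cannot bring them below 0.25. Members, motifs and 19 gene lists were chosen with earlier results of these data known. Named were the 20 strongest members found in all replicates, up to 3 per list, the 5 largest shifts each way in replicate 3 among members found in all 3 lists and 3 on each side of each window edge, of which 1 is not reported here; genes with several sites were chosen after their values were seen. Python 3.11.15, numpy 2.4.6, pandas 2.3.3 and scipy 1.17.1 were used; classification, matching and motif search were tested on simulated data. The alternatives were other TSS sets, site sets, tolerances, windows and replicates.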

Additional observations from a re-analysis of the deposited data

How the results depend on the processing

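With 1 TSS per gene the class held 615 members at a median distance of 194 bp, 6.27% of genes had a member, and the differences from downstream sites reversed, to 161 ranks and -1.14 percentage points among the N best. With the 1961 strongest passing sites the class held 485 members, 4.66% of genes had one, and the rank difference from divergent sites reversed to -56.3. With an upstream window of 250 bp there were 516 members and 5.17% of genes had one, and with 1000 bp 9.29% did. Without each replicate in turn, the share among the N best, upstream minus downstream, ran between -0.287 and 3.94 percentage points, below 0 only without replicate 3. The ribosomal protein share was 16.7% with the 1961 strongest sites and 38.1% to 44.7% with other windows or 1 TSS per gene, alternatives chosen after seeing the data. The GC difference from downstream sites kept its direction under each alternative run for it. So did the share of called regions among the N best, upstream minus downstream, and the lead of alternative TSSs. The GC difference shrank to -2.57 with 1 TSS per gene. The share difference was 15.9 with 1 TSS per gene, and 15.4 with N set to 1961, which lowers the share in every class. The lead of alternative TSSs shrank to -105 ranks with the 1961 strongest passing sites, where ranks span fewer sites. Single motif shares moved beyond the SD over replicates in 63 cases and stayed within it in 49. Limits: no control library, no depth and no second condition were analysed, 3 replicates cannot give a p below 0.25, and sites passed on a pool of the same replicates.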
